A study of Rattus norvegicus with 6 samples.

Results

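The lens transcription factors followed here are 10 genes, Foxe3, Pax6, Sox1, Sox2, Prox1, Maf, Hsf4, Pitx3, Six3 and Tfap2a, chosen by name as regulators of lens formation and fibre differentiation. They were found in the data as the probe sets whose gene symbol in the probe table of the array equals one of these names. Of the 10, 9 matched, each by 1 probe set, of 18166 genes that the table names by a single symbol. Over the series, 19086 probe sets are linked to a gene. Sox1, whose loss in mice impairs gamma-crystallin expression, is paired with no probe set in that table and was not analysed here. A gene was called detected when its log2 signal reached 5 on at least 1 array, and all 9 matched factors did so. The lowest of their highest values was that of Pitx3, 6.19. Foxe3 was at or above 5 on 2 of the 6 arrays and the other 8 factors on all 6.

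RNA came from lenses of 6-week-old male Sprague Dawley rats, cultured whole and measured on 6 arrays. AZD0156 and KU55933 had 1 array each, from lenses kept in 30 mM galactose for 6 days with the Atm inhibitor at 20 µM for the last 3 days. Galactose had 3 arrays (30 mM for 6 days), and the Control had 1 array, without galactose. By the methods, DMSO was added with the inhibitors and to the lenses in galactose alone, and for the Control they name sterile water and no DMSO. Galactose therefore cannot be told apart from DMSO if the Control went without it. The methods text puts the Control in culture for 6 days, while the drawn scheme of the experiment shows another time, and an unequal culture time cannot be told apart from galactose either. No source used here gives how many lenses an array holds. The galactose arrays are the only replicates. p-values set a difference against the spread between these 3 arrays, which limma moderates toward that of the other tested probe sets. Nothing in the labels says that the 3 arrays came from separate animals.

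The lens is an epithelial sheet over a mass of elongated fibre cells, and epithelial cells at its equator turn into fibres throughout life. Pax6, Six3 and Sox2 act early, when the surface ectoderm takes on lens identity, and Tfap2a, Foxe3 and Pitx3 maintain the epithelium that follows. Prox1, Maf and Hsf4 act in the cells that leave the cell cycle, elongate and fill with crystallins, the structural proteins of the lens. Variants in several of these genes cause congenital cataract or small eyes in humans and mice. Of the lens markers, 10 of 10 matched crystallin genes and 10 of 10 matched fibre genes were detected, that is, on at least 1 array. The fibre gene Epha2 was under 5 on the AZD0156 array (4.63). Of 7 matched retina, 4 cornea, 6 immune and 3 endothelium markers, 0 reached 5 on any array. The highest values were 3.60 for the retina list (Thy1), 4.31 for cornea (Aldh3a1), 4.74 for immune cells (Cd68) and 3.72 for endothelium (Tek). Of 8 matched iris and ciliary body markers, 1 reached 5, the muscle filament gene Des, and the pigment cell genes Tyr, Mlana, Pmel, Dct and Tyrp1 lay between 1.15 and 3.50. Pax6, Six3 and Sox2 are also retinal genes, and the retina markers were below 5 on every array where these were detected.

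Galactose was set against the Control to ask which transcripts change in lenses with induced opacity. All 9 factors had a lower mean in galactose than in the Control, and 2 of them, Foxe3 and Six3, fell at an adjusted p under 0.05. The median log2 difference of the 9 was -0.73, against -0.02 over all 5784 probe sets tested, of which 51.1% had a lower mean in galactose. Over all tested probe sets, 1.26% were called lower and 1.61% higher, 2.87% in all. At an unadjusted p under 0.05, 6 of the 9 factors were lower and 0 higher, where 11.9% of all tested probe sets were lower and 11.2% higher. The Control lay above each of the 3 galactose arrays for 7 of the 9, against 35.2% of all tested probe sets. For the same 7 it lay above all 5 other arrays, against 30.4% of all tested probe sets. In whole lenses, fewer cells of a type and less RNA per cell cannot be told apart.

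**Figure D1:**
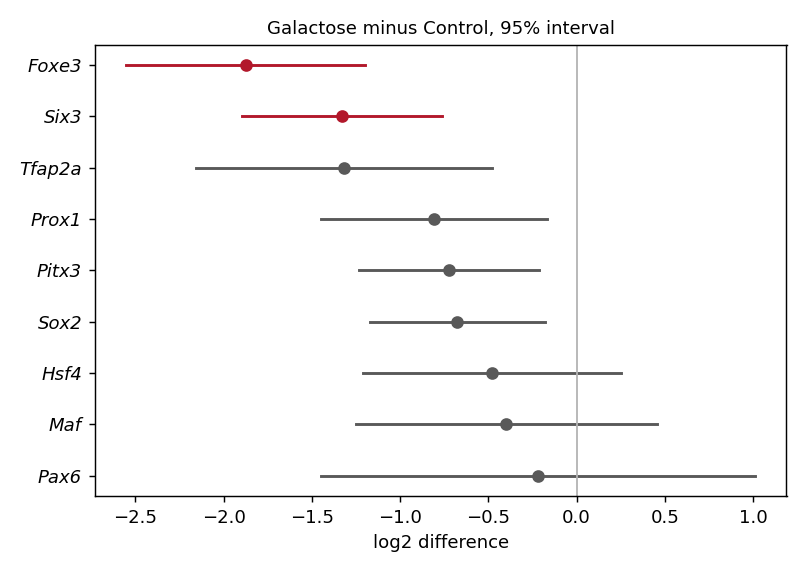
Log2 difference of galactose (3 arrays) minus the Control (1 array) for 9 lens transcription factors, points with 95% intervals from limma. Red marks the 2 factors with an adjusted p under 0.05, Foxe3 (-1.87) and Six3 (-1.33), and the intervals of Hsf4, Maf and Pax6 cross 0.

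Foxe3 and Six3 are the factors with a call, and the stretches of reference sequence around their start sites are printed to show how unlike these are. They are RefSeq promoters of the build GRCr8, 250 bases before to 50 after the start, Foxe3 at chr5:133683217-133683516 and Six3 at chr6:14796207-14796506, both on the minus strand. Capitals mark the core promoter letters TATAA and CCAAT on either strand.
Foxe3: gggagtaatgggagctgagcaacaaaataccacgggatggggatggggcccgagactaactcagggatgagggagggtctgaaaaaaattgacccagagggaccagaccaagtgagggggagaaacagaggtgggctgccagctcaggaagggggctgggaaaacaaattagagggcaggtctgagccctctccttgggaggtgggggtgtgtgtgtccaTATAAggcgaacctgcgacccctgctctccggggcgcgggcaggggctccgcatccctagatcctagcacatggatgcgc
Six3: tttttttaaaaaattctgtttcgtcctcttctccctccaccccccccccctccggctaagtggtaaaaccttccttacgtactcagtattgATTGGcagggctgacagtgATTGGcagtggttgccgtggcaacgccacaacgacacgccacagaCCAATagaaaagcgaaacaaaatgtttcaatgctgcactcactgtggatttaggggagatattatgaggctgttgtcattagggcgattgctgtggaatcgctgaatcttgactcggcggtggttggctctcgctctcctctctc
The Foxe3 window holds 1 match to TATAA, at position -30 from the start site, a pattern found in 26.2% of 33469 rat promoter windows of this length. The Six3 window holds none and has 3 matches to CCAAT, at -159, -140 and -95, a pattern found in 37.5% of windows. These 2 patterns were chosen after the letters had been seen. Promoter windows of 6 of the 10 factors were in the table (Foxe3, Maf, Pax6, Pitx3, Six3 and Sox2). They were also searched on both strands for letters bound by the factors themselves: GAANNTTC (heat shock factors), TGCTGA (Maf), ACAAAG and ACAATG (Sox proteins), TAATCC (Pitx proteins), GCCNNNGGC (AP-2) and TGTTTAC (forkhead proteins). GCCNNNGGC was found in 2 of the 6 windows, those of Maf and Pitx3, and in 15.1% of all windows. The fixed letters of this pattern are all G or C. The Maf and Pitx3 windows were 73.3% and 74% G or C, against a median of 51.7% over all windows. The other 6 patterns were found in 0 of the 6 windows and in 3.78% to 18.8% of all windows. A match is a description of letters, and its absence says nothing of the factor beyond this window.

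Foxe3, a forkhead factor of the lens epithelium, had a log2 signal of 4.48, 5.05 and 4.92 in galactose, against 6.69 in the Control. All 3 galactose arrays lay below the Control, with an SD of 0.297, and 2 of them and their mean were under the detection threshold of 5. The difference was -1.87 (95% interval -2.55 to -1.20, adjusted p = 0.0349 from limma). This corresponds to a signal 3.67-fold lower in galactose as measured, a size that is uncertain because the galactose level lies at or under the threshold. Without galactose replicate 3 the adjusted p was 0.0973, and with the detection threshold at 6 it was 0.0607. Pitx3, a homeodomain factor needed for the lens vesicle in mice, had 5.34, 5.60 and 5.45 in galactose, against 6.19 in the Control. All galactose arrays were lower, but the difference of -0.73 did not pass (95% interval -1.24 to -0.22, adjusted p = 0.112). Tfap2a, the AP-2alpha factor of surface ectoderm and lens epithelium, had 5.04, 5.93 and 5.75 in galactose, against 6.89 in the Control. Its galactose arrays were widely spread (SD 0.466) but did not reach the Control. The difference was -1.32 (95% interval -2.16 to -0.48, adjusted p = 0.0964).

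Six3, a homeobox factor of the early eye field, had 5.89, 5.98 and 5.62 in galactose, against 7.16 in the Control. The replicate SD of 0.188 was small beside the difference of -1.33 (95% interval -1.89 to -0.76, adjusted p = 0.0427), a signal 2.51-fold lower in galactose. The adjusted p was 0.107 without galactose replicate 2, 0.126 without replicate 3 and 0.0514 with the arrays quantile normalized again. Sox2, an HMG-box factor that partners Pax6 in lens induction, had 5.74, 5.79 and 5.60 in galactose, against 6.39 in the Control. It had the smallest galactose SD of the 9, 0.098, and a difference of -0.67 (95% interval -1.17 to -0.18, adjusted p = 0.122). Pax6, the paired-box regulator of eye development, had 6.57, 7.87 and 7.85 in galactose, against 7.65 in the Control. Here the groups overlapped, with 2 galactose arrays above the Control and replicate 1 well below it. Its difference was -0.22 (95% interval -1.45 to 1.01, adjusted p = 0.841), and 0.21 without replicate 1.

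Prox1, a homeobox factor needed for fibre elongation, had 6.95, 7.26 and 7.32 in galactose, against 7.98 in the Control. All galactose arrays were lower, with a difference of -0.81 (95% interval -1.45 to -0.17, adjusted p = 0.141). Hsf4, the heat shock factor of fibre cells, had 7.71, 8.24 and 8.26 in galactose, against 8.55 in the Control. It also lay below the Control on every galactose array, by less than the spread allows to call (difference -0.48, 95% interval -1.21 to 0.25, adjusted p = 0.397). Maf, a leucine zipper activator of crystallin genes, had 8.72, 8.90 and 9.57 in galactose, against 9.46 in the Control. Its groups overlapped, since replicate 3 lay above the Control (difference -0.40, 95% interval -1.25 to 0.45, adjusted p = 0.553).

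**Figure D2:**
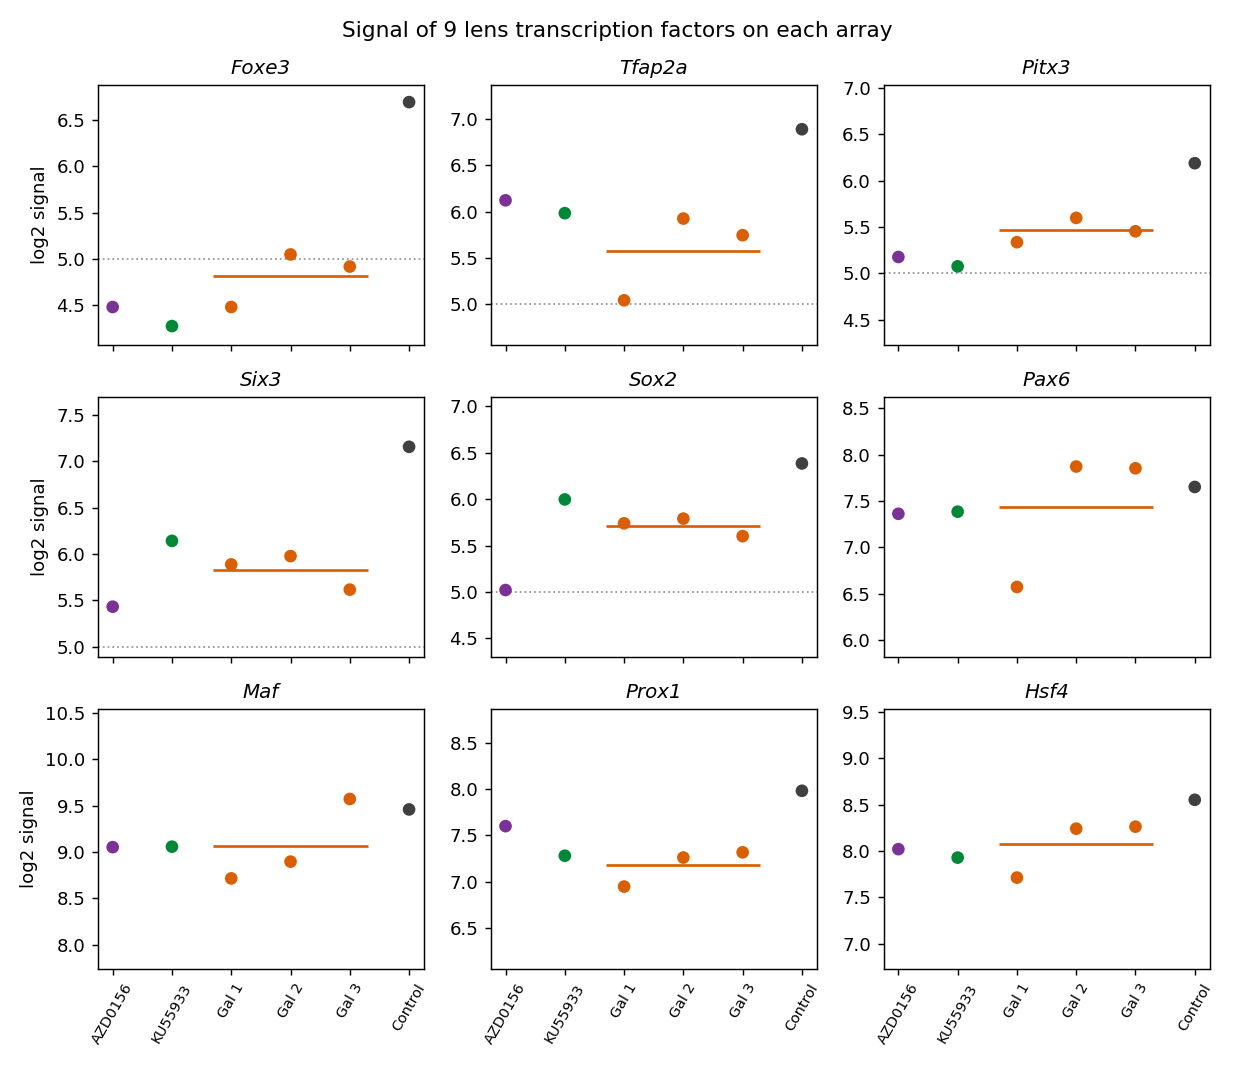
Log2 signal (y axis, equal span in each panel) of 9 lens transcription factors on the AZD0156, KU55933, 3 galactose (Gal 1 to 3) and Control arrays, 1 point per array. The orange line is the galactose mean and the dotted line the detection threshold of 5, and the Control is the highest array for 7 of the 9, Maf and Pax6 being the others.

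The spread among the galactose arrays differed between the factors. The SD ran from 0.098 (Sox2) and 0.131 (Pitx3) to 0.451 (Maf), 0.466 (Tfap2a) and 0.744 (Pax6), with a median of 0.297, against 0.203 over all tested probe sets. Replicate 1 was the lowest galactose array for 7 of the 9, all but Six3 and Sox2, against 48.2% of all tested probe sets. Tfap2a and Pax6 held the widest gaps, since replicate 1 stood at 5.04 and 6.57 where the other replicates stood at 5.75 or more and 7.85 or more. With replicate 1 left out, 6 of the 9 factors were called lower in galactose (Foxe3, Six3, Tfap2a, Prox1, Pitx3 and Sox2). In that fit 1642 of 5784 probe sets were called, against 166 with all arrays. The moderated SD had a median of 0.184, against 0.223, and its prior degrees of freedom were 108, against 4.97. Without replicate 3, 0 of the 9 were called and 6 probe sets in all.

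Each inhibitor was set against galactose to ask which transcripts move when opacity is reduced. limma called 0 of the 9 factors with AZD0156 and 0 with KU55933, and 0% of all tested probe sets in either comparison. At an unadjusted p under 0.05, 1 of the 9 was lower with AZD0156 (Sox2), where 12.4% of all tested probe sets were lower and 1.33% higher. With KU55933 0 of the 9 were, where 1.16% of all were lower and 2.3% higher. AZD0156 lay below all 3 galactose arrays for 4 factors (Foxe3, Pitx3, Six3 and Sox2) and above them for 2 (Prox1 and Tfap2a), against 46.6% and 14.2% of all tested probe sets. KU55933 lay below them for 2 (Foxe3 and Pitx3) and above them for 3 (Six3, Sox2 and Tfap2a), against 17.7% and 29.9%. The median difference of all tested probe sets was -0.18 with AZD0156 and 0.05 with KU55933, and each factor is to be read against that shift. The medians of the 9 were -0.07 with AZD0156 and -0.004 with KU55933.

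Among the epithelial factors, Foxe3 had 4.48 with AZD0156 and 4.28 with KU55933, against a galactose mean of 4.82. Both arrays lay below all 3 galactose arrays, though AZD0156 was all but equal to replicate 1, and neither difference passed (-0.33, 95% interval -1.01 to 0.34, and -0.54, 95% interval -1.22 to 0.14). Pitx3 had 5.18 with AZD0156 and 5.08 with KU55933, against 5.46 in galactose. It too was below all galactose arrays with both inhibitors, by -0.29 (95% interval -0.80 to 0.22) and -0.39 (95% interval -0.90 to 0.12). Tfap2a had 6.12 with AZD0156 and 5.98 with KU55933, against 5.57 in galactose and 6.89 in the Control. Both arrays were above all galactose arrays and below the Control, with differences from galactose of 0.55 (95% interval -0.29 to 1.39) and 0.41 (95% interval -0.43 to 1.25).

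Sox2 had 5.02 with AZD0156 and 5.997 with KU55933, against 5.71 in galactose. The inhibitors lay on opposite sides of the galactose arrays, by -0.69 for AZD0156 (95% interval -1.19 to -0.19, adjusted p = 0.267) and 0.29 for KU55933 (95% interval -0.21 to 0.78, adjusted p = 0.992). Six3 had the same order, with 5.43 with AZD0156 and 6.14 with KU55933, against 5.83 in galactose. Its differences were -0.39 (95% interval -0.96 to 0.17) and 0.31 (95% interval -0.25 to 0.88). Pax6 had 7.36 with AZD0156 and 7.39 with KU55933, against 7.43 in galactose, and both values lay within the spread of the galactose arrays.

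Prox1 had 7.60 with AZD0156 and 7.28 with KU55933, against 7.17 in galactose. AZD0156 was above all galactose arrays and KU55933 within them, with differences of 0.42 (95% interval -0.22 to 1.06) and 0.11 (95% interval -0.53 to 0.75). Hsf4 had 8.02 with AZD0156 and 7.93 with KU55933, against 8.07 in galactose. Maf had 9.05 and 9.06 with the same inhibitors, against 9.06 in galactose. Both genes lay within the galactose arrays, with differences no larger than 0.14 in size. With AZD0156 the sign of the Hsf4, Maf and Pax6 differences turned when each array was centred on its median.

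**Figure D3:**
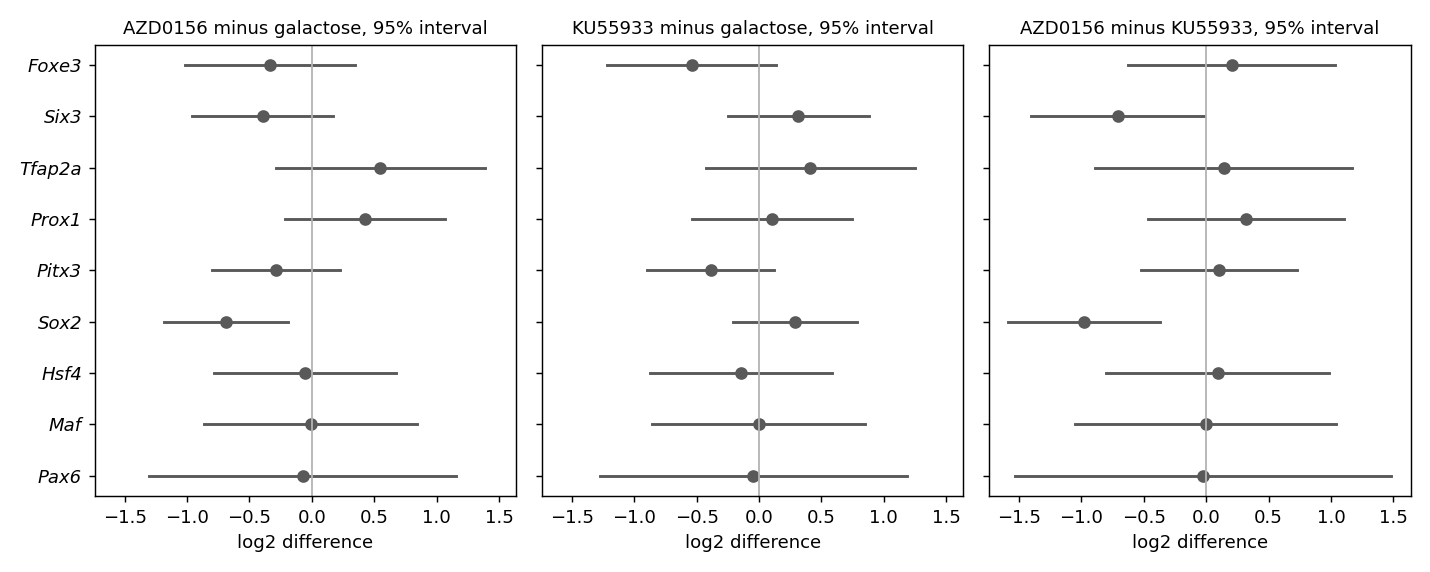
Log2 differences of 9 lens transcription factors, points with 95% intervals from limma, for AZD0156 minus galactose, KU55933 minus galactose, and AZD0156 minus KU55933. No factor passed an adjusted p of 0.05, and Sox2 is the only factor whose interval excludes 0 for AZD0156 against galactose (-0.69).

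AZD0156 and KU55933 were matched in concentration and duration, which makes 1 pair to compare. Whether they inhibited Atm to the same degree was not tested. limma called 0 of the 9 factors between AZD0156 and KU55933, and 0% of all tested probe sets. Sox2 had the largest difference of the 9, at -0.98 (95% interval -1.59 to -0.37, adjusted p = 0.314), and Six3 followed at -0.71 (95% interval -1.40 to -0.02, adjusted p = 0.429). At an unadjusted p under 0.05 these 2 were lower and 0 higher, where 10.8% of all tested probe sets were lower and 0.882% higher, and the median of all was -0.23. For Foxe3 the difference was 0.21 (95% interval -0.62 to 1.04) and for Pitx3 0.10 (95% interval -0.52 to 0.73). The intervals of Tfap2a (-0.89 to 1.17), Prox1 (-0.46 to 1.10), Hsf4 (-0.80 to 0.99), Maf (-1.05 to 1.04) and Pax6 (-1.53 to 1.48) were wide, so that missing the threshold is no evidence of equal action.

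Set against the Control, lenses with an inhibitor had lower values than the Control for all 9 factors. On the AZD0156 array, 66.8% of all tested probe sets were also below the Control, with a median of -0.21 over all and -0.77 over the 9. The factors on that array are to be read against this downward shift. On the KU55933 array 47.6% of all were below the Control, with a median of 0.03 over all and -0.70 over the 9. limma called 0 of the 9 with AZD0156 and 0 with KU55933, where 0.207% and 0.156% of all tested probe sets were called in either direction (lower 0.104% and 0.0173%, higher 0.104% and 0.138%). These comparisons share the Control array with galactose against the Control and are no independent repeat of it. Foxe3, which was under the threshold of 5 on both inhibitor arrays and above it on the Control array, had measured differences of -2.21 with AZD0156 (95% interval -3.04 to -1.38, adjusted p = 0.0598) and -2.41 with KU55933 (95% interval -3.24 to -1.58, adjusted p = 0.0777). Six3 had -1.72 with AZD0156 (adjusted p = 0.0715) and -1.01 with KU55933 (adjusted p = 0.208). Sox2 had -1.36 with AZD0156 (adjusted p = 0.0862) and -0.39 with KU55933 (adjusted p = 0.513). Pitx3 had -1.01 and -1.11 with the same inhibitors. At an unadjusted p under 0.05, 4 factors were lower than the Control with AZD0156 (Foxe3, Six3, Sox2 and Pitx3), where 14% of all tested probe sets were lower and 4.01% higher. With KU55933 3 were lower (Foxe3, Pitx3 and Six3), where 6.86% were lower and 8.71% higher. A further limma fit, chosen after the data had been seen, pooled all 5 arrays in galactose as 1 group. The factors it called were Foxe3 (-2.05, adjusted p = 0.0147) and Six3 (-1.34, adjusted p = 0.0462), among 120 of 5784 probe sets called. It takes the inhibitor arrays as replicates of galactose, so any effect of the inhibitors enters its spread.

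The genes nearest to Foxe3 and Six3 in pattern were found by centring each tested gene on its own mean and taking the root mean square difference over the 6 arrays. Nearest to Foxe3 were Ptpre (0.138 on the log2 scale), Rasl12 (0.188), Pdgfra (0.205), Mab21l1 (0.212) and Cavin2 (0.224). Ptpre, Rasl12 and Cavin2 were under 5 on all arrays but the Control, so they entered the test through the Control alone, and a high Control is in part what the filter selects. Pdgfra, a growth factor receptor of the lens epithelium, had 4.79, 5.13 and 5.41 in galactose, against 7.32 in the Control. It fell by 2.20 (adjusted p = 0.0232), with 4.90 on the AZD0156 array and 4.98 on the KU55933 array, both within the galactose arrays. Nearest to Six3 were Prpsap1 (0.123), Tcea1 (0.125), Abhd8 (0.126), Fn3k (0.128) and Gtf2ird1 (0.140). Among the factors themselves, the nearest pairs were Hsf4 with Prox1 (0.199) and Hsf4 with Maf (0.200), and Six3 was nearest to Sox2 (0.249). Foxe3 and Pax6 were farthest apart (0.746). All of these distances rest on the same 6 arrays and are a description.

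**Figure D4:**
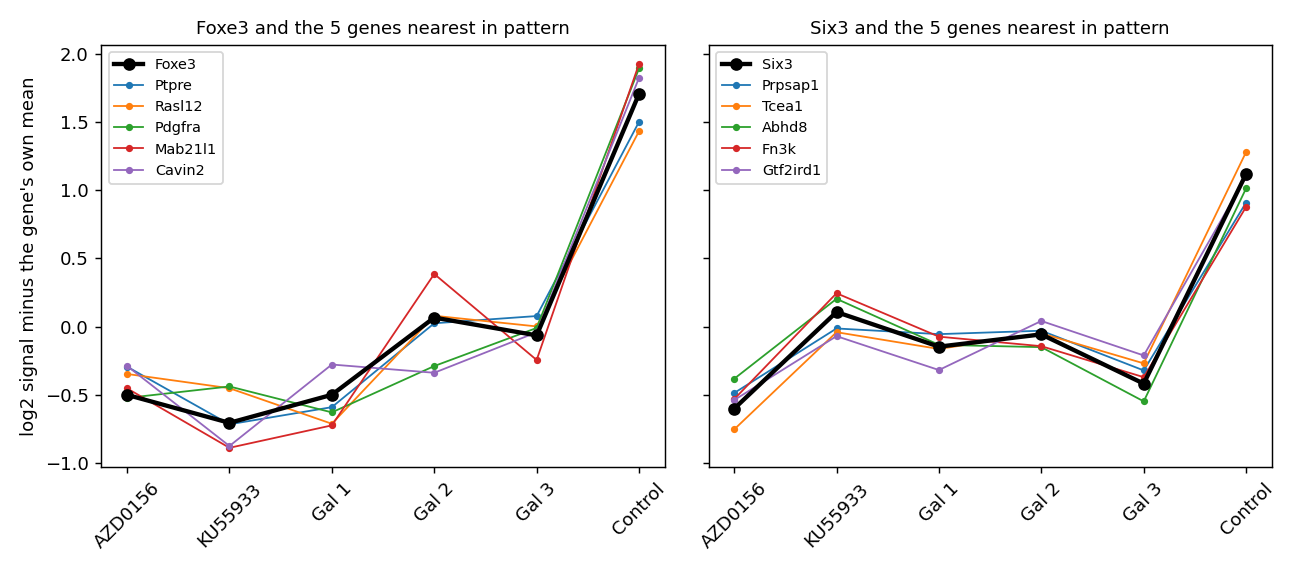
Log2 signal minus each gene's own mean (y axis) on the 6 arrays (x axis) for Foxe3 and Six3 in black, each with the 5 tested genes nearest to it in pattern. Lines only join the points of a gene, and in each panel the Control array is the highest for every gene shown.

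Other regulators and downstream genes were taken from lists. Of 56 further lens regulators, 51 matched the table and 24 were tested. Of these, 2 fell in galactose and 0 rose, with a median difference of -0.41. Of all tested probe sets, 1.26% were called lower and 1.61% higher, and the median of all was -0.02. Mab21l1, a gene downstream of Pax6 in the mouse lens, had 4.76, 5.87 and 5.24 in galactose, against 7.41 in the Control (difference -2.12, adjusted p = 0.045). Rbm24, an RNA-binding protein of lens development, had 5.80, 5.68 and 6.21 in galactose, against 7.43 in the Control (difference -1.54, adjusted p = 0.0426). Left without galactose replicate 3, Mab21l1 had an adjusted p of 0.126 and Rbm24 of 0.0962, and Rbm24 had 0.118 when replicate 2 was left out. Of 6 transcription factors of epithelial-mesenchymal transition, 5 matched and 2 were tested, and 0 were called. Zeb1 had a difference of -0.27 (adjusted p = 0.621) and Zeb2 of 0.14 (adjusted p = 0.729), and Snai1, Twist1 and Twist2 stayed under 5 on every array. Zeb1 was under 5 on all arrays but that of AZD0156 (5.14), so it entered the test through that array alone.

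The lists that follow are to be read beside all tested probe sets, of which 1.26% were called lower in galactose, with a median of -0.02. Of 8 genes linked to Prox1, 7 were tested, and 1 fell in galactose, with a list median of -0.35. This was Cdkn1c, an inhibitor of the cell cycle that Prox1 is needed for in mouse fibre cells, with 6.46, 6.19 and 6.11 in galactose, against 8.06 in the Control (difference -1.80, adjusted p = 0.0304). Its relative Cdkn1b had a difference of -0.08 (adjusted p = 0.875). Of 8 genes linked to Hsf4, 7 were tested and 0 were called, with a median of -0.13. Among these, Hmox1, a stress-induced heme oxygenase, had the largest positive difference, 1.11 (adjusted p = 0.0916), and Hspb1, a small heat shock protein, the largest negative one, -0.65 (adjusted p = 0.137). The intermediate filament gene Vim had -0.40 (adjusted p = 0.530). Dnase2b, the nuclease that clears fibre nuclei, had 0.72 (adjusted p = 0.183). The epithelium list of 10 genes holds 4 of the factors, and of its 8 tested genes 2 fell, Foxe3 and Pdgfra. Its median of -0.75 includes the factors. The other tested genes had differences of -2.20 (Pdgfra), -0.77 (Cdh2), -0.26 (Ccnd2) and 0.15 (Cdh1). The adhesion gene Cdh1 in this list had 7.03, 8.38 and 8.62 in galactose, against 7.86 in the Control, so replicate 1 was again the lowest array of its group.

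Of 16 crystallin genes, the main products of the pathway, 10 were tested and 0 were called in galactose, with a median of 0.03. Crygf (1.19, adjusted p = 0.0767) and Cryge (0.28, adjusted p = 0.426) had the largest positive differences. Crygn (-0.34, adjusted p = 0.507) and Cryab (-0.13, adjusted p = 0.522) had the largest negative ones. Cryab, Cryba1, Cryba2 and Crygd lay between 13.02 (Crygd) and 13.32 (Cryba1) on all arrays. Whether these bright probe sets were near saturation was not tested, and a missing call does not show an unchanged level. Of 14 fibre genes, 10 were tested and 1 fell, the gap junction gene Gja3 (difference -1.49, adjusted p = 0.0433), with a median of -0.40. Of all tested probe sets 1.26% were called lower, and the median of all was -0.02. Des, the 1 detected gene of the iris and ciliary body list, moved with the factors, at 3.82, 3.65 and 4.18 in galactose, against 6.11 in the Control (difference -2.23, adjusted p = 0.0381). It was under 5 on all arrays but the Control, so it entered the test only because the Control was high. The mean log2 signal of that list, Des included, was 2.55 to 2.84 in galactose and 2.90 in the Control. The other matched genes of the list stayed under 5 on every array. Mlana (1.47), Tyrp1 (2.42) and Optc (3.40) were lower in the Control than their galactose means of 1.98, 3.03 and 3.49. Tyr (1.26), Pmel (2.78), Dct (2.55) and Myh11 (3.19) were above theirs of 1.25, 2.61, 2.50 and 2.96. The part of such tissue in the falls of Foxe3 and Six3 was not tested. Without galactose replicate 3, Cdkn1c (adjusted p = 0.11), Pdgfra (0.0578), Gja3 (0.126) and Des (0.105) did not pass, and without replicate 2 Cdkn1c (0.0812), Gja3 (0.147) and Des (0.103) did not.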

How the data were processed

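Lens RNA was hybridised to 6 GeneChip Rat Gene 2.0 ST arrays. The deposited values are log2 signals, which the authors obtained in R with Robust Multi-array Average normalization of all arrays. Package and version are not given in the sources used here. Groups were taken from the labels. Of 36685 probe sets, 19086 were linked to a gene in the platform's probe table, 18511 of them to 1 symbol, and the 5784 with a value of 5 or more on at least 1 array were tested, as in the authors' filter. For a listed gene with several probe sets, that of the highest mean was taken.

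All 6 arrays entered 1 fit with 4 group means in limma 3.58.1 (R 4.3.3), with a trend on the mean signal and 2 residual degrees of freedom, all from the galactose arrays. A single array of the other groups is assumed to vary like these. The spread of each probe set was moderated toward that of probe sets of like mean signal, with 4.97 prior degrees of freedom. The median standard error was 0.257 against the galactose mean and 0.315 between single arrays. Benjamini-Hochberg adjustment ran over the 5784 probe sets with a threshold of 0.05. The fit was also run on simulated data, in which a probe set had the same spread on every array. That run could therefore not test whether a single array varies like the galactose arrays. The number of arrays limits the precision. The methods name no test for the arrays.

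The members and lists were chosen with earlier results of these data known. Named from each further list were the genes called in any comparison, or otherwise the 2 with the largest difference in each direction in galactose against the Control. Cdkn1b, Cdh1 and the genes of the last section were chosen after their values were seen. The other uncalled genes named from the epithelium list and the iris and ciliary body list were also added then. For each called factor, the 5 genes nearest in pattern were named. Alternatives changed the filter, the scaling, the moderation and the galactose replicates used. Summaries used Python 3.11.15 and pandas 2.3.3. Coordinates are those of the GRCr8 promoter table, since the array's own build was not used.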

Additional observations from a re-analysis of the deposited data

How the results depend on the processing

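The 549 differences of the factors under an alternative kept their direction and their side of the threshold in 501, passed newly in 19, no longer passed in 7 and changed sign in 22. A change of filter or of moderation leaves a difference as it is, so no sign could turn there. The same holds for comparisons without the galactose mean when a galactose array is left out. The 501 therefore include many alternatives in which only the adjusted p could move. In galactose against the Control, 166 probe sets and 2 factors were called. With no filter on low values these were 69 and 0, with a threshold of 6 they were 109 and 1, and with arrays quantile normalized again 1 factor was called. Leaving out 1 galactose array gave 6 to 1642 probe sets and 0 to 6 factors. For AZD0156 against galactose it gave 0 to 1055 probe sets and 0 to 1 factors, for KU55933 against galactose 0 to 439 probe sets, and for AZD0156 against KU55933 0 to 804 probe sets and 0 to 1 factors. The high counts are those without replicate 1, where Sox2 passed for AZD0156 against galactose (adjusted p = 0.022) and against KU55933 (0.00463).

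AZD0156 against the Control called 12 probe sets and 0 factors. The count was 2 with no filter, 5 with a threshold of 6, 37 with a threshold of 4 (1 factor, Foxe3, adjusted p = 0.0499), 24 with arrays centred on their medians, 19 with arrays quantile normalized again, 37 with no trend and 20 with robust moderation. It was 0 to 1400 with 1 galactose array left out, with 0 to 5 factors. KU55933 against the Control called 9 probe sets and 0 factors, or 18 and 1 (Foxe3, adjusted p = 0.0398) with arrays centred, and 0 to 1113 and 0 to 6 with 1 galactose array left out. The cause of these changes was not tested beyond the moderation values given above for replicate 1.

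Signs changed among small differences. For AZD0156 against galactose, centred and quantile normalized arrays gave 0.15 and 0.22 for Hsf4, 0.19 and 0.24 for Maf, and 0.13 and 0.19 for Pax6. For AZD0156 against KU55933 they gave 0.23 and 0.24 for Maf, and 0.22 and 0.27 for Pax6. With arrays quantile normalized again, Maf for KU55933 against galactose was 0.0034 and Pax6 for AZD0156 against the Control was 0.014. With 1 galactose array left out, Pax6 in galactose against the Control ran from -0.44 to 0.21. For AZD0156 against galactose, Hsf4 ran from -0.23 to 0.043, Maf from -0.18 to 0.25 and Pax6 from -0.50 to 0.15. For KU55933 against galactose, Maf ran from -0.18 to 0.25, Pax6 from -0.48 to 0.17 and Prox1 from -0.0085 to 0.18. No paired analysis was possible because galactose alone has more than 1 array. All 9 factors stayed detected with a threshold of 4 or 6.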

Other observations

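A pair of regulators outside the 10 factors stood out on the AZD0156 array, chosen after their values were seen. Hes1, a repressor downstream of Notch signalling, had 4.25 with AZD0156 and 5.39 with KU55933, against 5.48, 5.50 and 5.38 in galactose and 4.89 in the Control. Gata3, a zinc finger factor of fibre differentiation in mice, had 4.12 with AZD0156 and 5.01 with KU55933, against 5.10, 5.10 and 5.003 in galactose and 5.65 in the Control. For both, AZD0156 was the lowest of the 6 arrays and KU55933 lay within the galactose arrays. AZD0156 lay below all 3 galactose arrays for 46.6% of all tested probe sets, with a median difference of -0.18 over all. Both genes were under the threshold of 5 on the AZD0156 array, which leaves the size of their differences uncertain. The differences of AZD0156 from galactose were -1.20 for Hes1 and -0.95 for Gata3 (limma, adjusted p = 0.212 for each), and neither passed. Nfe2l2, the transcription factor of the oxidative stress response, had 7.56, 8.08 and 7.69 in galactose, against 6.63 in the Control, a difference of 1.15 (adjusted p = 0.0866) opposite in direction to those of the 9 factors.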
